A study of Mus musculus with 4 samples.

Results

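A set of 10 genes of glutathione chemistry were followed in mouse leukaemia-model cells: the glutathione peroxidases Gpx1, Gpx3, Gpx4 and Gpx7, the soluble glutathione transferases Gstm1, Gstm5 and Gstp1, the membrane-bound transferases Mgst1 and Mgst2, and glutathione reductase (Gsr), which belongs to neither enzyme class but serves both. They are 10 of the 55426 genes in the tables, found by their symbols. The set was chosen on measured values: it was assembled because Gpx3 stood out in the comparison described here, so the levels of the 10 genes in this comparison are given as descriptions. Where the fit across all genes called a member, that is stated as a count beside the share of all genes called, and it supports nothing by itself. RNA was measured by poly(A)-selected sequencing in 4 libraries of transformed haematopoietic stem and progenitor cells from lineage-negative mouse bone marrow, grown in culture. Cells of 2 libraries (MLL-ENL) carried a fusion of the histone methyltransferase MLL (Kmt2a) with ENL (Mllt1), a reader of acylated histones. Cells of the other 2 (MLL-ENL dYEATS) carried a fusion whose ENL part is given as residues 372 to 559 and which lacks the YEATS domain that binds the acylated histone. All 4 libraries therefore come from cells with an MLL-ENL fusion, and there is no untransformed control. In what follows the second group is called the mutant. The sources used here do not give the vector and promoter of the fusions, the number of lines per genotype or the age of the mice. Both libraries of each genotype are described by the submitters as technical replicates, so the spread between them need not include that between lines, and genotype and line cannot be told apart.

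Glutathione is a small thiol that cells keep mostly reduced. Peroxidases of the Gpx family use it to reduce hydrogen peroxide and lipid hydroperoxides, some of them with a selenocysteine in the active site. Gsr returns the oxidised glutathione to the reduced form at the cost of NADPH. Transferases join glutathione to electrophiles, and the membrane-bound group also acts on lipid peroxides and on leukotriene A4. Myeloid cells, which can make oxidants themselves through the phagocyte NADPH oxidase, rely on this system among others.

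Of the 10 genes, 9 passed the filter on low counts and Gpx7 had no count in any library. Gpx3 passed the filter only through the MLL-ENL dYEATS libraries. Gpx3 was present almost only in cells with the shortened fusion, Gsr was 1.73-fold higher there, Mgst2 was lower by 0.98 on the log2 scale, and the other 6 measured genes differed by less than 0.5 on that scale. In edgeR's quasi-likelihood fit across 13245 genes, Gpx3 and Gsr passed the threshold as higher (2 of 9) and Mgst2 as lower (1 of 9), at an adjusted p under 0.05. Over all tested genes 7.04% were called higher and 9.84% lower, 16.9% in either direction. Nothing is read from the members' counts against these shares, because the comparison itself chose the set. The median log2 difference (MLL-ENL dYEATS minus MLL-ENL) was -0.04 over the 9 measured members and -0.01 over all tested genes. Both mutant libraries lay above both others in 3 members and below both in 3, and the groups overlapped in 3. Over all tested genes these shares were 32.1%, 32.2% and 35.7%. Groups without overlap were therefore common in the whole table, and nothing is read from them for a member.

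The start regions of 3 members are shown because these genes had the largest differences upward and downward, or carried the motif most often tied to this pathway. RefSeq start regions (GRCm38.p6, 250 bases before to 50 after the start) matched 9 of the 10 genes, not Gsr. The gene spans given further below come from GENCODE. For Gpx3 and Mgst2 the whole RefSeq region lies inside that span, so it is not the sequence before the GENCODE gene start. Capitals mark matches, on either strand, to 5 motifs. TGACNNNGC is the core of the antioxidant response element. The AP-1 site was searched for as TGANTCA. A GC box was taken as the letters GGGCGG. The 2 remaining motifs were CCAAT and, for the TATA box, the letters TATAAA.
Gpx3 (chr11:54902604-54902903, plus strand): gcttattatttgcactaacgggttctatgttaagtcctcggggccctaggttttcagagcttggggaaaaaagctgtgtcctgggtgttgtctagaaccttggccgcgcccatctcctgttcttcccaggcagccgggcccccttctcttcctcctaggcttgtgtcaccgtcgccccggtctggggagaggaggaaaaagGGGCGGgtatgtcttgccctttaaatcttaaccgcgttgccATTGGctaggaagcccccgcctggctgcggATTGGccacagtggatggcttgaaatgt
Mgst2 (chr3:51660929-51661228, plus strand): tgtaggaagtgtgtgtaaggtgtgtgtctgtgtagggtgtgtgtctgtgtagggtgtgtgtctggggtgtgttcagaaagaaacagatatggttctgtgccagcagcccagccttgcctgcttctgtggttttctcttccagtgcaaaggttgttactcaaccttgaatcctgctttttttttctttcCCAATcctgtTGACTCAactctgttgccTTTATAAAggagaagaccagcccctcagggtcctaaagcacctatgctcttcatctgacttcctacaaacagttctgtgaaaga
Gstm5 (chr3:107895604-107895903, plus strand): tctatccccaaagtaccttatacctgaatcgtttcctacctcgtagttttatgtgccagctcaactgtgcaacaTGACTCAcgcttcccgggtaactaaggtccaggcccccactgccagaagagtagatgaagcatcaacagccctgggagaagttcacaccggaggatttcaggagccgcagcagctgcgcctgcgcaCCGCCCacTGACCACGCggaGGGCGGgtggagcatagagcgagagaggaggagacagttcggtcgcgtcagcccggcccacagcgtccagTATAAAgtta

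The region of Gpx3 held a GC box starting 49 bases before the start and 2 matches to CCAAT, and no match to the antioxidant element or the AP-1 site. That of Mgst2 held the AP-1 letters TGACTCA from base -52, a CCAAT match from base -62 and TATA matches from bases -34 and -32, which overlap. It held 0 CpG dinucleotides, whereas the region of Gpx3 held 13 and that of Gstm5 held 18, against a median of 7 over 32851 regions of this length. Gstm5 had the antioxidant element letters TGACCACGC from base -42 and an AP-1 match from base -176. Of the other members, Mgst1 had an antioxidant element match on the minus strand and Gstp1 the AP-1 letters TGAGTCA from base -74. Among all 32851 regions, 12.4% held the antioxidant element core, 7.81% the AP-1 site, 35.7% the GC box, 37.4% CCAAT and 13.6% the TATA box. A match is a run of letters only, and binding was not measured.

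Gpx3 encodes the peroxidase that is secreted into plasma (chromosome 11, 54902453 to 54910377, GRCm38). It had 2 and 0 counts with MLL-ENL, compared with 902 and 964 in the mutant. As CPM (counts scaled to library size), these were 0.0747 and 0 against 30.7 and 33.6. Both libraries of the shortened fusion were high, both of the MLL-ENL fusion lay at or under the level of 3 counts (0.112 and 0.107 CPM), and the groups did not overlap. The ratio of summed counts was 883, with an exact 95% interval of 244 to 7295 that covers counting error only. In a bulk library, more cells with a transcript and more transcript per cell cannot be told apart.

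Gpx1, the abundant cytosolic and mitochondrial peroxidase (chromosome 9, 108338903 to 108340343), lay at 875 and 783 CPM with MLL-ENL, compared with 863 and 892 CPM in the mutant. The groups overlapped, and the log2 difference was 0.08 ± 0.11 (SE). Gpx4, which reduces phospholipid hydroperoxides within membranes and restrains ferroptosis (chromosome 10, 80047166 to 80056439), lay at 320 and 253 against 237 and 231 CPM. Its groups did not overlap, but the MLL-ENL libraries differed from each other by more (a ratio of 1.26) than the lower of them did from the mutant pair. The log2 difference was -0.29 ± 0.14 (SE). The processed copy Gpx4-ps2 had 604 and 467 against 406 and 435 counts, so part of the reads of this family may be split. Gpx7, the peroxidase of the endoplasmic reticulum (chromosome 4, 108400390 to 108406961), was at 0 in all 4 libraries, which allows up to 0.112 CPM. Of the 4 Gpx genes outside the set, Gpx2, Gpx5 and Gpx6 had no count and Gpx8 had 4 counts, all in MLL-ENL replicate 2.

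Set against each other per length, in FPKM, the peroxidases were led by Gpx1 and then Gpx4 in all 4 libraries, and Gpx3 joined them in the mutant. Gpx1 made up 70.6% and 72.9% of their summed FPKM with MLL-ENL, compared with 74.9% and 75.8% in the mutant. Gpx4 made up 29.4% and 27.1% against 23.6% and 22.5%. Gpx3 reached 1.55% and 1.67% of the sum in the mutant. The summed FPKM of the peroxidases was 1575 and 1451 against 1556 and 1578, so these totals overlapped between the groups while Gpx3 did not.

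**Figure D1:**
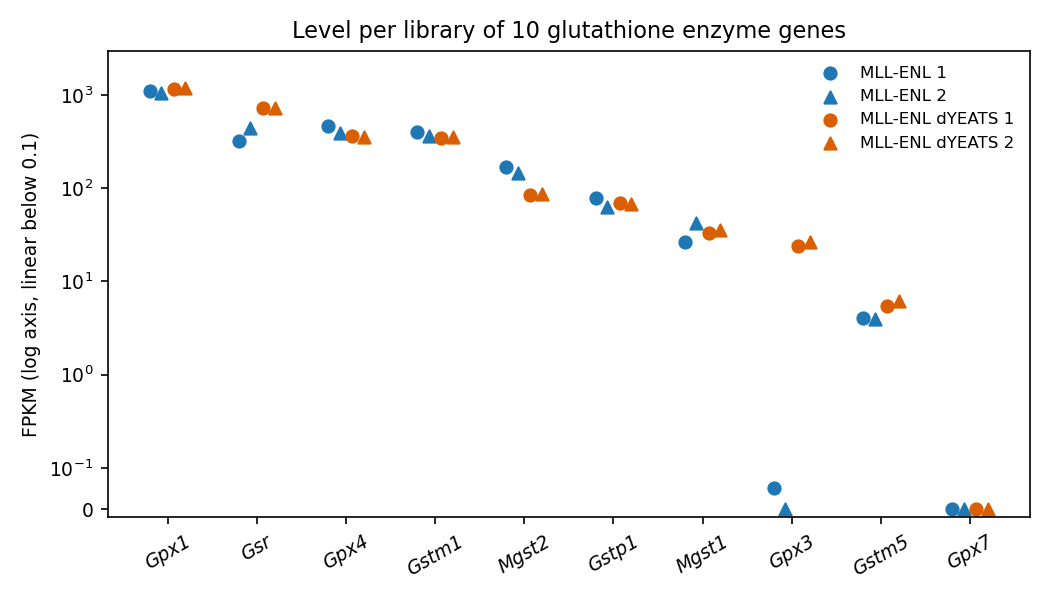
FPKM of the 10 genes in each library, in order of their mean (vertical axis logarithmic above 0.1 and linear below; blue, MLL-ENL; orange, MLL-ENL dYEATS; circles and triangles, replicates 1 and 2). Gpx3 lies at 24.1 and 26.3 FPKM in the mutant libraries and at 0.05 and 0 in the others, Gsr and Mgst2 separate in opposite directions, and Gpx7 is at 0.

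Among the soluble transferases, levels were close in the 2 genotypes. Gstm1, the main mu-class enzyme (chromosome 3, 108012255 to 108017973), lay at 421 and 358 CPM with MLL-ENL, compared with 339 and 348 CPM in the mutant. The groups lay apart by less than the distance within the MLL-ENL pair (log2 difference -0.18 ± 0.12 SE). Gstp1, the pi-class enzyme (chromosome 19, 4035407 to 4037985), lay at 43.9 and 32.9 against 36.1 and 35.3 CPM, with both mutant libraries between those of the MLL-ENL pair. The near copy Gstp2 had 3 counts in all. Gstm5 (chromosome 3, 107895821 to 107898686), a weakly expressed mu-class gene, lay at 2.80 and 2.52 against 3.54 and 3.94 CPM, higher in both mutant libraries by 0.49 ± 0.19 (SE) on the log2 scale but not called. An antisense gene, 4933431E20Rik, shares 178 exonic bases (13.9%) with Gstm5 on the opposite strand and was itself called higher (0.822 and 0.782 against 2.45 and 2.65 CPM; edgeR adjusted p = 0.0088). The sources used here do not say how reads were assigned by strand, so the reads of this pair cannot be told apart.

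The mu-class genes lie side by side on chromosome 3, and their levels did not move as a block. Gstm2, between Gstm1 and Gstm5, fell from 44.6 ± 10.3 to 20.5 ± 0.669 CPM (SD, n = 2 libraries; log2 fold change -1.12 ± 0.18 SE, edgeR adjusted p = 0.0146). Per length, Gstm2 stood at 15.9% and 13.5% of the FPKM of Gstm1 with MLL-ENL, compared with 7.67% and 7.80% in the mutant. For Gstm5 these shares were 0.998% and 1.07% against 1.57% and 1.71%, so within the cluster the balance of Gstm2 and Gstm5 to Gstm1 shifted in opposite directions in both libraries. Gstm4 remained between 5.80% and 7.31% in all 4. Reads of these closely related genes may be split among them. A difference between members of the cluster was not tested.

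The membrane-bound transferases differed from each other. Mgst2, which conjugates glutathione to leukotriene A4 and to lipid peroxides (chromosome 3, 51660360 to 51682677), lay at 77.1 and 63.8 CPM with MLL-ENL, compared with 35.6 and 35.7 CPM in the mutant. Both mutant libraries were below both others, by -0.98 ± 0.13 (SE) on the log2 scale, and the direction held without each library in turn (-1.11 to -0.84). Mgst1, the enzyme of the endoplasmic reticulum and outer mitochondrial membrane (chromosome 6, 138140316 to 138156755), lay at 24.7 and 36.1 against 28.5 and 30.7 CPM. The mutant libraries lay between those of the MLL-ENL pair. Its log2 difference was -0.04 ± 0.20 (SE), but leaving out MLL-ENL replicate 2 gave 0.26 and leaving out replicate 1 gave -0.28, so no direction can be given for Mgst1.

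Per length, Gstm1 was the leading transferase of the set, with 59.1% of the summed FPKM of the 5 genes in each MLL-ENL library and 64.4% and 64.6% in the mutant. Mgst2 supplied 24.7% and 23.3% against 15.5% and 15.5%. The summed FPKM of the 5 was 680 and 623 with MLL-ENL, compared with 545 and 554 in the mutant, with no overlap. The order of the levels was Gstm1, Mgst2, Gstp1, Mgst1 and Gstm5 in every library, and the nearest neighbours in the mutant were Mgst2 (84.5 and 86.0 FPKM) and Gstp1 (70.3 and 68.2 FPKM).

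Gsr, the reductase (chromosome 8, 33652523 to 33698163), had 784 and 944 CPM with MLL-ENL, compared with 1482 and 1517 CPM in the mutant. Both mutant libraries were above both others, and the distance between the groups exceeded that within the MLL-ENL pair. The log2 difference was 0.79 ± 0.13 (SE). Without MLL-ENL dYEATS replicate 1 or 2 it was 0.81 and 0.77, and Gsr then no longer passed the threshold. In FPKM, Gsr went from 326 and 442 to 724 and 726, so that it lay above Gpx4 in both mutant libraries (367 and 356 FPKM) and on either side of it in the MLL-ENL pair (463 and 394 FPKM).

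**Figure D2:**
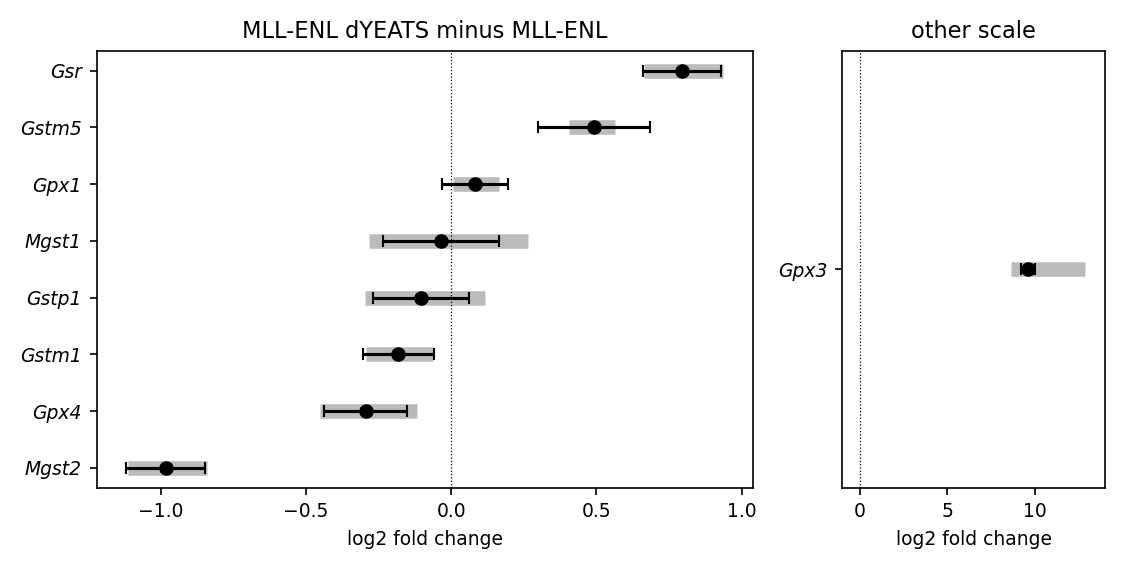
Log2 fold change (MLL-ENL dYEATS minus MLL-ENL) of the 9 measured genes with its SE (black) and its range when each library was left out in turn (grey), n = 2 libraries per group. Gsr and Mgst2 stay on their side of 0 and Mgst1 and Gstp1 cross it, while Gpx3 is drawn on a wider axis because its fitted value rests on 2 counts in the MLL-ENL libraries and shifts with the method.

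Libraries held 27812855 to 28814798 expected counts. Counts differed more between the MLL-ENL libraries than between the mutant ones (chi-square per degree of freedom 98.9 against 2.07). Across 13245 genes its log2 ratio fell with transcript length (Spearman's rho = -0.49, against 0.09 in the mutant pair), a description across genes that share libraries. The members are short, with a median exonic length of 1724 bases against 4059 over tested genes, and 6 of the 8 with counts in both MLL-ENL libraries were higher in replicate 1 than in replicate 2, all but Mgst1 and Gsr. With the length trend removed, the log2 difference was 0.79 for Gsr and -0.89 for Mgst2. The same numbers of members were called (2 and 1), among them Gpx3, whose fitted value rests on 2 counts in the MLL-ENL libraries. Neither fusion partner was called: Mllt1 lay at 67.7 and 62.1 against 64.0 and 59.3 CPM and Kmt2a at 51.9 and 84.1 against 70.5 and 67.9 CPM. These reads do not show which fusion a library carried, since how fusion reads were counted was not stated.

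Markers of myeloid cells differed between the genotypes, in both directions. Of 10 monocyte and macrophage markers 6 were tested: 5 rose (Csf1r, Cd68, Ccr2, Adgre1 and Mpeg1) and 0 fell. Cd14 was not called but lay lower in both mutant libraries (9.67 and 10.1 CPM with MLL-ENL against 7.05 and 6.91 CPM). The summed level of the 10 was 118 and 153 CPM with MLL-ENL, compared with 237 and 227 CPM in the mutant. Marco, C1qa, C1qb and C1qc were at 0. Of 10 neutrophil markers 4 rose and 4 fell, and their sum was 6004 and 4928 against 3015 and 3061 CPM. Most of that sum came from Elane (means of 3417 against 1795 CPM) and Prtn3 (1386 against 818 CPM), which both fell. Within that list Mpo, myeloperoxidase of early granules, fell from 530.1 ± 90.9 to 60.9 ± 2.07 CPM (SD, n = 2 libraries, edgeR adjusted p = 0.000429). Ngp also fell, from 54.0 ± 7.02 to 20.9 ± 1.64 CPM (adjusted p = 0.00361), and Camp and Ltf were not called. The calcium-binding S100a8 rose 4.46-fold (adjusted p = 0.00198) and S100a9 4.89-fold (adjusted p = 0.000457), and Mmp8 and Mmp9 were called higher at low levels. Of 8 eosinophil, basophil and mast cell markers Epx, Cpa3, Fcer1a and Tpsb2 were at 0 and 1 (Ear2) rose, with sums of 5.62 to 8.59 CPM in all libraries. Of 8 stem and progenitor markers 5 were tested, 1 rose and 2 fell, with sums of 607 and 695 against 597 and 607 CPM. Most of these sums came from Hoxa9 and Ptprc, which were not called. The sums were close although the stem cell factor receptor Kit fell from 58.7 ± 11.7 to 3.27 ± 0.909 CPM (SD, n = 2 libraries; edgeR adjusted p = 0.000681) and the transcription factor Gata2 rose from 0.582 ± 0.0314 to 10.1 ± 0.0753 CPM (adjusted p = 0.000387). These marker genes were named after their values were seen. The haemoglobin genes, all 5 T-lymphoid and NK markers, and the B-cell genes Ms4a1 and Pax5 were at 0. Summed erythroid, megakaryocyte, B-lymphoid and stromal markers each lay at or under 2.58 CPM, although 1 stromal marker, Pdgfra, was called higher at under 0.4 CPM. The part of the myeloid stage in the levels of Gpx3, Gsr and Mgst2 was not tested.

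The genes around each member were compared with it, to see whether neighbours shared its level. Tnip1, an inhibitor of NF-kB signalling whose end lies 0.408 kb from Gpx3, lay at 72.4 and 70.2 against 81.9 and 78.1 CPM and was not called (log2 fold change 0.17 ± 0.11 SE). Hint1, the nearest tested gene on the other side, was not called either (0.32 ± 0.13 SE). Of 12 tested genes that start within 500 kb of Gpx3, 2 rose and 0 fell, a share near the 16.9% called over all tested genes. They were Gm2a, the GM2 ganglioside activator (log2 fold change 0.69 ± 0.11 SE, edgeR adjusted p = 0.0132), and the amino acid transporter Slc36a2 (0.89 ± 0.19 SE, adjusted p = 0.0322). Their gaps from Gpx3 were 188 and 248 kb. Neither neighbour of Gsr (Ubxn8 and Gtf2e2) nor of Mgst2 (5031434O11Rik and Maml3) was called, nor was Gm37261, which overlaps Mgst2 (5.34 and 7.86 against 3.78 and 3.52 CPM). Maml3, 3.23 kb from Mgst2, had a log2 fold change of -0.75 ± 0.20 (SE). Beside the unexpressed Gpx7, Tut4 was called higher at low levels, from 0.187 and 0.178 to 1.26 and 1.43 CPM.

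**Figure D3:**
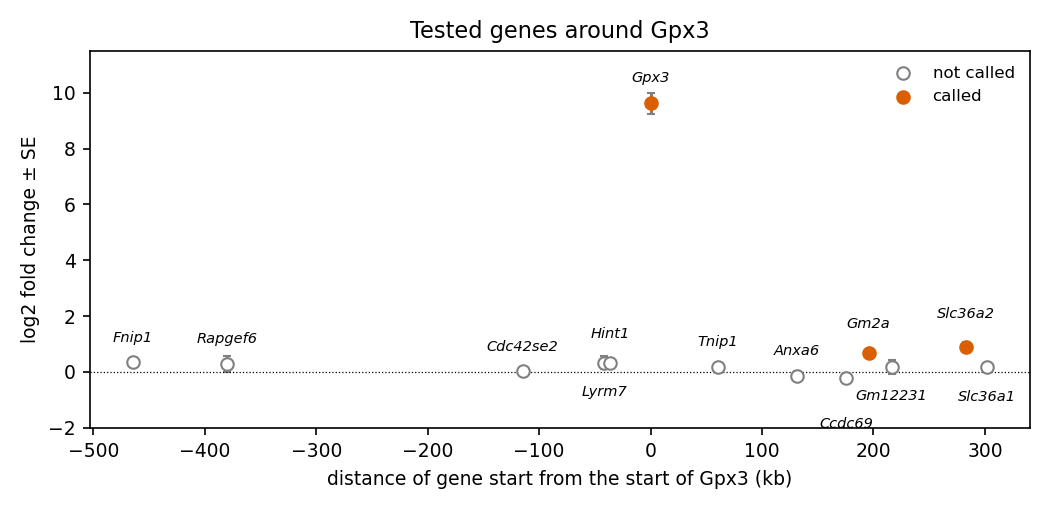
Log2 fold change with SE of tested genes whose start lies within 500 kb of that of Gpx3 (horizontal axis, distance between gene starts in kb; filled, called at an adjusted p under 0.05). Gpx3 stands at 9.62, a fitted value that rests on 2 counts in the MLL-ENL libraries and shifts with the method. The 12 other genes lie between -0.22 and 0.89.

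By the distance of log2(CPM + 0.5) over the 4 libraries, the genes most like Gpx3 were Gm16867 (0 and 0 against 33.8 and 34.9 CPM; distance 0.25), the potassium channel subunit Abcc8 (0.79) and the testis-type proteasome subunit Psma8 (0.93). Those most like Mgst2 were Hps1, needed for lysosome-related organelles (0.11), the glucose-6-phosphatase G6pc3 (0.11) and the lysosomal beta-galactosidase Glb1 (0.16). With 4 libraries, such likeness describes levels only.

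Beyond the members, 131 genes of glutathione and neighbouring redox chemistry were followed in 9 lists, of which 109 were tested. Of these, 8 rose and 11 fell (17.4% called), a share near that of all tested genes (16.9%), and their median log2 fold change was 0.07. Of 25 other transferases and related membrane enzymes 16 were tested: 1 rose, 3 fell and 12 were not called, with a median of -0.43. Besides Gstm2, the theta-class genes Gstt2 (8.74 and 6.61 against 3.51 and 3.87 CPM, edgeR adjusted p = 0.0249) and Gstt3 (8.48 and 10.8 against 5.21 and 4.71 CPM, adjusted p = 0.0243) fell. The 1 that rose, leukotriene C4 synthase (Ltc4s, which like Mgst2 acts on leukotriene A4; named after its values were seen), had 6 against 46 counts in all, a ratio of 7.25 (3.09 to 20.8, counting error). The calls of Gstt2 (without MLL-ENL dYEATS replicate 1, adjusted p = 0.0899) and Gstt3 (without replicate 1 or 2 of that group, 0.0501 and 0.115) ended when a library was left out.

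Glutathione synthesis and turnover had 2 of 15 tested genes higher, 1 lower and 12 not called (median 0.31). Ggt5, a gamma-glutamyl transferase that cleaves leukotriene C4, went from 2 counts in all to 173, a ratio of 81.9 (22.3 to 681, counting error). Like Gpx3, Ggt5 passed the filter on low counts only through the MLL-ENL dYEATS libraries. Ggct, a cyclotransferase of glutathione breakdown, rose from 8.99 ± 0.80 to 13.6 ± 0.75 CPM (SD, n = 2 libraries; edgeR adjusted p = 0.0425), which it no longer passed when replicate 1 or 2 of the mutant was left out (0.282 and 0.448). Its log2 fold change was 0.60 from counts and 0.10 from log2(FPKM + 1). The 1 that fell, the aminopeptidase Anpep (named after its values were seen), was at 0.411 and 0.462 CPM and then at 0 in both mutant libraries, at least 4.22-fold lower when 3 counts in each library are taken as the floor. The rate-limiting synthesis subunits Gclc and Gclm (also named after their values were seen) were not called, at 64.6 and 79.6 against 85.5 and 86.9 CPM and at 112 and 151 against 179 and 181 CPM.

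Of 13 genes for glutaredoxins and for the supply of NADPH, which Gsr uses, 1 rose, 3 fell and 9 were not called (median -0.19). Among those not called, and named after their values were seen, the log2 fold change was 0.06 for G6pdx and -0.20 for Pgd, of the pentose phosphate pathway, 0.29 for Idh2 and 0.36 for the NAD kinase Nadk. Malic enzyme (Me1) fell from 47.2 ± 1.15 to 16.05 ± 0.056 CPM (SD, n = 2 libraries; log2 fold change -1.55 ± 0.11 SE, edgeR adjusted p = 0.00108). The mitochondrial transhydrogenase Nnt fell by 1.23 ± 0.20 (SE) on the log2 scale (adjusted p = 0.015), though 2 overlapping entries carry that symbol and may share reads. Cytosolic isocitrate dehydrogenase (Idh1) fell from 264 and 323 to 174 and 184 CPM (adjusted p = 0.0231), and glutaredoxin (Glrx), which removes glutathione from protein thiols, rose from 92.1 and 95.1 to 145 and 154 CPM (adjusted p = 0.0129). Without MLL-ENL dYEATS replicate 1 or 2 the calls of Glrx (adjusted p = 0.189 and 0.305) and Idh1 (0.289 and 0.2) ended.

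Of 21 NRF2 regulators and targets, the genes of the main transcriptional response to electrophiles, 3 rose, 1 fell and 17 were not called (median 0.26). Haem oxygenase (Hmox1) rose from 15.8 and 11.8 to 34.9 and 36.1 CPM (edgeR adjusted p = 0.00596), the small Maf factor Maff from 4.15 and 2.63 to 7.32 and 7.61 CPM (adjusted p = 0.0344) and sulfiredoxin (Srxn1) from 29.9 and 31.2 to 50.3 and 50.4 CPM (adjusted p = 0.0112). Me1 is the 1 that fell. The gene of NRF2 itself, Nfe2l2 (named after its values were seen), lay at 51.8 and 74.8 against 101 and 97.0 CPM and was not called (adjusted p = 0.0799). Of 16 tested thioredoxin, peroxiredoxin, catalase and superoxide dismutase genes, Srxn1 alone was called, and its call ended without MLL-ENL dYEATS replicate 1 or 2 (0.165 and 0.17).

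Of 23 tested genes for selenoproteins and their synthesis, a pathway on which Gpx1, Gpx3 and Gpx4 depend, 0 rose and 3 fell (edgeR; median 0.10). The 3 were Selenom (29.2 and 17.9 against 9.81 and 10.5 CPM, adjusted p = 0.0296), Selenoo (adjusted p = 0.0134) and Selenok (adjusted p = 0.0214). In the phagocyte NADPH oxidase, which makes superoxide, 1 of 6 subunits fell, Ncf4 (138 and 113 against 75.1 and 70.4 CPM, adjusted p = 0.0179). Among 10 tested lipid peroxidation and leukotriene genes 1 rose and 0 fell: Aifm2, a quinone reductase that limits lipid peroxidation apart from Gpx4, went from 17.1 and 16.4 to 31.5 and 30.4 CPM (adjusted p = 0.00661). Without MLL-ENL dYEATS replicate 1 or 2 the calls of Selenoo (adjusted p = 0.191 and 0.143), Selenok (0.364 and 0.334) and Ncf4 (0.114 and 0.202) ended. Of the 17 genes named from the lists by rule, 3 (Ggt5, Hmox1 and Me1) were called in all alternatives in which they were tested. Ggt5 was not tested at the minimum of 5 CPM, and it passed the main filter only through the MLL-ENL dYEATS libraries. Its calls therefore support nothing by themselves. With limma on filtered log2(FPKM + 1), the calls of Nnt (adjusted p = 0.060), Gstt3 (0.0863), Idh1 (0.0708), Selenoo (0.0679), Selenok (0.0865) and Ggct (0.805) ended.

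**Figure D4:**
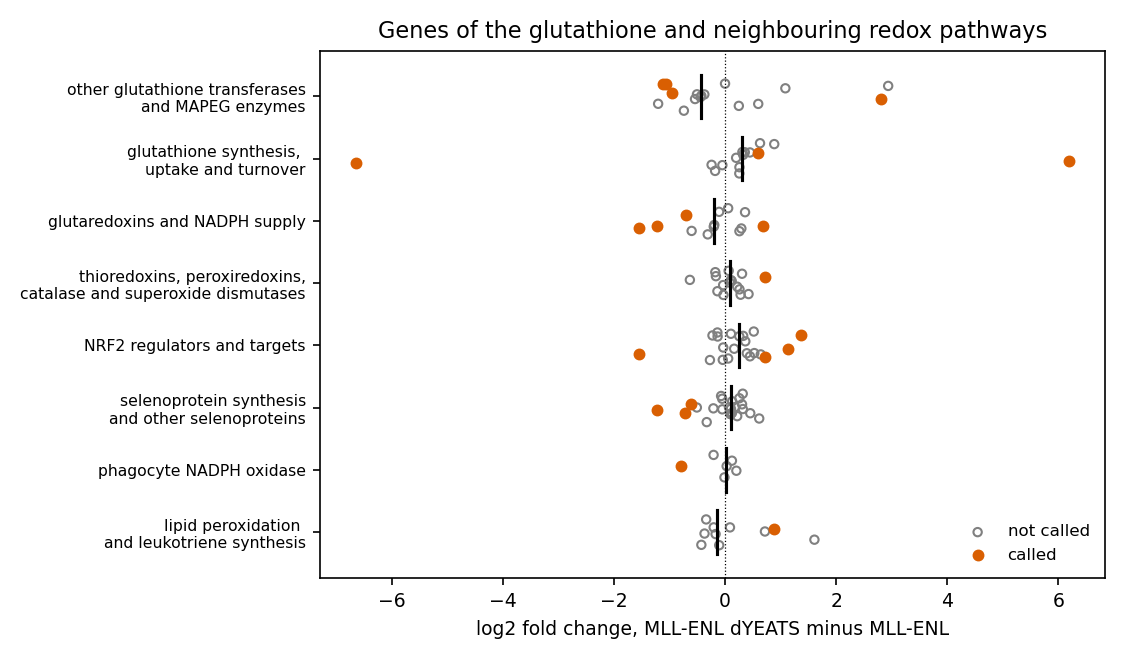
Log2 fold change of each tested gene in 8 pathway lists (filled, called at an adjusted p under 0.05; open, not called; bar, median of the list). Medians lie between -0.43 and 0.31, and the points near -6.6 (Anpep) and 6.2 (Ggt5) rest on 0 and 2 counts in 1 group, so their fitted size is no measure of the change.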

How the data were processed

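RNA of 4 libraries, 2 per genotype, was measured. The authors deposited expected counts per gene, whole numbers from RSEM, and FPKM, which the authors scaled by length and depth. Per the submitters' processing notes, the tools were STAR 2.7.8a, RSEM 1.3.3, FastQC 0.11.8 and cutadapt 2.3, and the build GRCm38. The sources used here do not give settings, annotation release or strand. Of 55426 genes, 13245 passed edgeR's filterByExpr. Libraries were scaled by TMM and tested with edgeR 4.0.16 (quasi-likelihood, legacy fit, R 4.3.3) with Benjamini-Hochberg adjustment over all tested genes, called at an adjusted p under 0.05. SE is the log2 fold change divided by the square root of F. Positions and exonic lengths came from GENCODE M21 (55240 identifiers matched). Intervals are exact and conditional on counts, and cover counting error only. The test was checked on data made for this comparison with 200 changed genes among 13245. It recovered 22.2% of 1.5-fold, 74.0% of 2-fold and 94.2% of 4-fold changes, so a gene not called may still differ by such amounts. False calls averaged 4.4. The made data had the same spread in both groups and no length trend, unlike the MLL-ENL pair, so these shares may not hold for the real libraries. Members and lists were chosen with earlier results of these data known. Genes named are all members, up to 3 called genes per list and direction with at least 1 CPM, nearest tested neighbours, and the 3 genes most like each of the 2 members with the largest differences. Alternatives were other scalings and filters, leaving out each library, a replicate block, limma-voom, limma 3.58.1 on log2 FPKM, DESeq2 1.42.0, a length-trend offset, and removal of ribosomal RNA and mitochondrial genes.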

Additional observations from a re-analysis of the deposited data

How the results depend on the processing

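Genes called higher and lower over the whole table (932 and 1303) numbered 548 to 4598 and 844 to 4501 with a library left out, 545 and 805 at a minimum of 5 CPM, 1435 and 1698 with the replicate block, 1427 and 1763 with the length trend removed, and 293 and 381 with limma on unfiltered log2(FPKM + 1). With limma on filtered log2(FPKM + 1), 837 were lower. Members called were 1 to 4 higher and 1 to 4 lower with a library left out, and 1 and 0 with limma on unfiltered FPKM. Pathway genes called (8 and 11) were 5 to 46 and 6 to 41 with a library left out, 5 higher at 5 CPM, 16 higher with the replicate block, 20 higher with the length trend removed, 2 and 1 with limma on unfiltered FPKM, and 6 and 7 lower with limma at pseudocounts of 1 and 0.1. The replicate numbers do not pair the libraries: deviations correlated at -0.044 between groups, and the block left the members' calls at 2 and 1. Mgst1 turned positive with scaling by totals (0.0093), limma on log2 FPKM (0.045, 0.047 and 0.045), limma-voom (0.043), the length trend removed (0.016), and without MLL-ENL replicate 2 (0.26) or MLL-ENL dYEATS replicate 1 (0.013). Gstp1 turned positive without MLL-ENL replicate 1 (0.12; -0.30 without replicate 2), and Mgst1 was -0.28 without MLL-ENL replicate 1. The cause was not tested. Without an MLL-ENL library the spread rests on the close mutant pair, and the lone library is assumed to vary like that pair. At these depths a gene with no count lies under about 0.112 CPM.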

Other observations

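Ggct, measured 2 ways, gave values that did not match: its FPKM were 9.46 and 6.66 with MLL-ENL, compared with 7.58 and 9.68 in the mutant, which overlap, while its counts of 256 and 237 against 384 and 405 do not. Gstp3, beside Gstp1, had 3 and 0 against 13 and 13 counts and was not called (edgeR adjusted p = 0.0676). The transferase Gsta4 lay at 0.672 and 0.462 against 1.40 and 1.01 CPM and was not called (adjusted p = 0.0912). Gsto1, the omega-class enzyme and after Gstm1 the transferase with most counts, lay at 125 and 121 against 88.0 and 94.8 CPM (log2 fold change -0.43, adjusted p = 0.0533). All 3 were named after their values were seen.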
